A study of Mus musculus with 6 samples.

Results

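Pseudogene transcripts of the mouse prefrontal cortex were followed across 6 libraries. They were the rows of the linear transcript table that match an annotated transcript (class code "=") and whose transcript type contains the word pseudogene. There were 13532 of them among 175010 rows, of which 141448 match an annotated transcript. The PS_high group (n = 3 samples) received 50 mg/kg polystyrene nanoparticles by gavage, daily for 6 months, and the control group (n = 3 samples) received water (0 mg/kg). All animals were male C57BL/6 mice without a transgene. Gavage began at an age of 5 weeks, and the prefrontal cortex was taken at 30 weeks. The labels do not say whether a sample held 1 animal or several, so p-values measure the spread between samples. Total RNA was depleted of ribosomal RNA (Ribo-Zero) and sequenced with a stranded kit, which also captures unspliced RNA.

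Pseudogenes are copies of genes that have lost, or are presumed to have lost, the ability to make the parent's protein. Processed pseudogenes arise when an mRNA is reverse transcribed and inserted elsewhere in the genome, which leaves a copy without introns and without the parent's promoter. Genes with abundant mRNA in the germ line, such as those of ribosomal proteins and glycolytic enzymes, have left many such copies. Unprocessed pseudogenes come from duplicated genes and can keep the exon structure, as in the olfactory and vomeronasal receptor clusters, and unitary pseudogenes are genes that lost their function without a copy. Because copy and parent are alike in sequence, short reads can be assigned to either, and the values below are those of the authors' assignment, with no check of which copy a read came from.

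The sequence around the start can be set beside the parent's for 2 ribosome-related copies whose start is annotated in RefSeq (GRCm38.p6). Both are typed as processed pseudogenes here, but RefSeq calls both protein coding. The windows run from 250 bases before to 50 bases after the annotated start, 5′ to 3′ on the gene's strand, and capitals mark the longest run of letters shared by copy and parent.
Tma7-ps, chr1:171710820-171711119, plus strand: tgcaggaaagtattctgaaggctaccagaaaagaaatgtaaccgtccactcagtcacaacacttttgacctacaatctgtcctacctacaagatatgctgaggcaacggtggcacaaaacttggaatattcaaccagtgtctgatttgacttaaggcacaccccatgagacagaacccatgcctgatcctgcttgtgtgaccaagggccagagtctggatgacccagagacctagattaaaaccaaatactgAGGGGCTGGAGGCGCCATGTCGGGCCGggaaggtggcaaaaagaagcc
Tma7, chr9:109082332-109082631, minus strand: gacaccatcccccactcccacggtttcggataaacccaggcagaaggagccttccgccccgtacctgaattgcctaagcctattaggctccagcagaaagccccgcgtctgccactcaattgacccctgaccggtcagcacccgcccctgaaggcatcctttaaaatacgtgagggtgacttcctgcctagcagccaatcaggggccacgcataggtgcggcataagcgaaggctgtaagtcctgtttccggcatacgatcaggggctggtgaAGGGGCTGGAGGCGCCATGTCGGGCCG
Rpl31-ps12, chr16:16820147-16820446, minus strand: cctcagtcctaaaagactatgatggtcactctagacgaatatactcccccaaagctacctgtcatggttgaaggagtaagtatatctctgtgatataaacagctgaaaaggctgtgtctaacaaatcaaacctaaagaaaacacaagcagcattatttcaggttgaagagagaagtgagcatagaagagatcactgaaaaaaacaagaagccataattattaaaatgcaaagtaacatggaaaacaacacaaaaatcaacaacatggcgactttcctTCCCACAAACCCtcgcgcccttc
Rpl31, chr1:39367601-39367900, plus strand: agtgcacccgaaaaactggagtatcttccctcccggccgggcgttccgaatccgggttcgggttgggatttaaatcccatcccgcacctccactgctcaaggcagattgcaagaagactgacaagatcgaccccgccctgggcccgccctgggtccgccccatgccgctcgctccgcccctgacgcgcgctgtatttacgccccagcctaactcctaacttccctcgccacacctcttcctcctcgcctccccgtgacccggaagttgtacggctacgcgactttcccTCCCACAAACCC

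In the Tma7 pair the shared run was 27 bases long and lay after the annotated start in both windows. In the Rpl31 pair it was 12 bases long, also after the start. In both parent windows the run reached the last base, so the shared stretch may go on past the window. The counted transcript of Tma7-ps begins 18 bases past the RefSeq start. That of Rpl31-ps12 begins 73 bases past it, outside the window shown, and overlaps Spag6l on the same strand. The window of Tma7-ps held 5 CG dinucleotides, against 17 in that of Tma7, which encodes a factor of the translation machinery. The window of Rpl31-ps12 held 4, against 26 in that of Rpl31, a protein of the large ribosomal subunit. Over the 38 RefSeq windows of 35 tested pseudogenes the median was 4 CG dinucleotides and a GC content of 46.0%, against 23 and 61.0% over 175 windows of 131 parent genes and 7 and 52.7% over all 32851 windows. GGGCGG, the GC box, was found on either strand in 26.3% of the pseudogene windows, against 62.9% of the parents' and 35.7% of all. TATAAA was found on either strand in 28.9% of the pseudogene windows, against 8.57% of the parents' and 13.6% of all. Only these 35 of the tested pseudogenes had a RefSeq window, so the values need not hold for the tested set as a whole. The 131 parent genes are those of any tested pseudogene with a named parent, so the sets do not pair copy with parent. These are matches of letters, and the table does not show where transcription began.

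Copy and parent could be set side by side in the libraries as well. Tma7-ps had estimated counts of 27, 39 and 22 in PS_high and 50, 22 and 43 in control, and Rpl31-ps12 had 28, 16 and 10 in PS_high and 31, 28 and 27 in control. The parent genes stood at 493, 482 and 159 counts (Tma7, PS_high) against 58, 151 and 160 in control, and at 1218, 1210 and 1387 counts (Rpl31, PS_high) against 1315, 1260 and 1437 in control. The counts of the groups overlapped in all 4. In CPM (counts scaled by edgeR to library depth) Tma7 had 10.9, 11.6 and 3.27 in PS_high and 1.22, 3.11 and 3.01 in control, so that PS_high replicates 1 and 2 were high, the third lay close to control and the groups did not overlap. Its log2 fold change was 1.81 ± 0.55 (SE) with an adjusted p of 0.999935 by edgeR's quasi-likelihood test. The groups of Tma7-ps, of Rpl31 and of its copy overlapped in CPM too.

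Most pseudogene transcripts had no or few estimated counts. A count above 0 was present in at least 1 library for 6287 of 13532 (46.5%) and in all 6 libraries for 2916, and 7245 were listed at 0 in every library. A listed 0 can also come from how reads were assigned among copies and is not shown to be a lack of expression. A deposited count is a whole number rounded up from the estimate, so that a count of 1 can stand for a part of a read. A mean of at least 0.5 FPKM (fragments scaled by transcript length and library depth) over the 6 libraries, the filter for testing, was reached by 1910 (14.1%). Rpl19-ps12 and Gm16164 lay just inside it, each at 0.50 FPKM, and Vmn2r-ps88 and Gm43712 just outside, also at 0.50 FPKM to 2 decimals. The lowest class above 0, under 0.1 FPKM, held 2764 transcripts, 709 lay between 0.5 and 1 FPKM, 1025 between 1 and 5, 112 between 5 and 10, and 64 at 10 FPKM or more.

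Processed pseudogenes made up most of the set and most of its signal. Of 9940 processed pseudogenes, 5503 (55.4%) had a count and 1754 (17.6%) reached the filter. Of 2652 unprocessed pseudogenes, 424 (16.0%) had a count and 67 (2.53%) reached it. The 244 transcripts of the transcribed processed type, for which the annotation records evidence of transcription, reached the filter in 61 cases (25.0%), and the 261 of the transcribed unprocessed type in 11 (4.21%). The 158 immunoglobulin V, 3 D and 1 C segment pseudogenes and 2 further immunoglobulin pseudogenes were listed at 0 in every library.

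The share of a library's counts that fell on pseudogene transcripts was 0.397%, 0.444% and 0.449% in PS_high and 0.421%, 0.438% and 0.450% in control. The means were 0.430% ± 0.0286 in PS_high and 0.436% ± 0.0147 in control (SD, n = 3 each), and the groups overlapped. Of total counts of 63466209, 53344395 and 61417412 in PS_high and 65219552, 61842978 and 66004386 in control, the pseudogenes held 252116, 236904 and 275850 in PS_high and 274416, 270597 and 297076 in control. Processed pseudogenes alone held 0.392% ± 0.0283 in PS_high and 0.396% ± 0.0133 in control. Unprocessed ones held 0.0149% ± 0.000470 in PS_high and 0.0157% ± 0.000985 in control.

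The 64 transcripts at 10 FPKM or more held 22.9%, 25.5% and 27.7% of the pseudogene counts in PS_high and 23.1%, 23.0% and 26.4% in control. Of these 64, 58 were processed pseudogenes, 63 had a single exon and all had counts in each of the 6 libraries. A parent gene found in the table is named for 18, and 11 of the 64 belong to the ribosomal protein family. To the others no parent is assigned here.

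The highest levels belonged to a set of single-exon copies of nearly equal length. Gm2606, on chromosome 15 opposite to Pdzd2, had 46.0, 76.2 and 70.2 FPKM in PS_high and 47.7, 49.0 and 297.6 FPKM in control. Gm5559, on chromosome 5, had 61.6, 95.8 and 105.4 FPKM in PS_high and 71.6, 75.7 and 21.5 FPKM in control. Control replicate 3 thus held the highest value of Gm2606 and the lowest of Gm5559, and the groups overlapped in both. Gm7336, on chromosome 7, had 50.1, 80.6 and 87.5 FPKM in PS_high and 60.3, 64.4 and 14.4 FPKM in control. Gm12070, on chromosome 11, had 41.7, 72.7 and 78.6 FPKM in PS_high and 50.3, 58.0 and 27.1 FPKM in control. Both shared the low value of Gm5559 in control replicate 3.

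Gm2606, Gm5559, Gm12070 and 3 further transcripts of this kind, Gm12033, Gm12671 and Gm10359, are each 1002 bases long, and Gm7336 is 1232 bases long. Gm12070, Gm12033, Gm12671 and Gm10359 were singled out after their values were seen. The length of 1002 bases is shared by 26 pseudogene transcripts, all of them single exons and 13 of them tested, and 2 of the 26 are named as copies of Gapdh, the glycolytic enzyme glyceraldehyde-3-phosphate dehydrogenase. Only for these 2 does the table name a parent. Summed over the 7 transcripts, the counts were 17872, 25888 and 30649 in PS_high and 22669, 22968 and 33564 in control. The sum in control replicate 3 was the highest of the 6 libraries, close to that of PS_high replicate 3, whereas Gm2606 alone had 23702 counts there and 3716 and 3618 in control replicates 1 and 2. The plot of counts of the 7 transcripts by library shows these values. Whether reads were divided differently among the copies in that library was not tested.

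**Figure D1:**
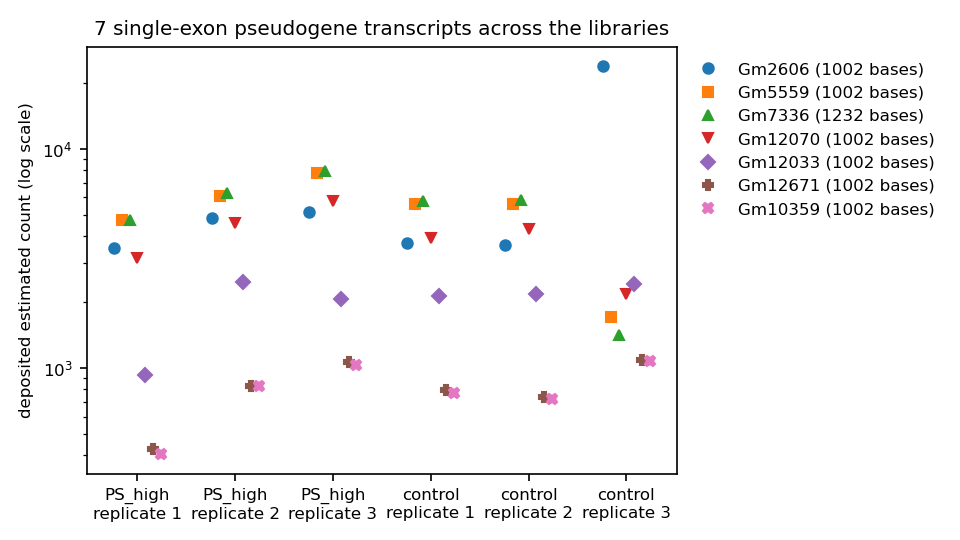
Deposited estimated counts (log scale) of 7 single-exon pseudogene transcripts in the 3 PS_high and 3 control libraries, 1 marker per transcript. In control replicate 3, Gm2606 lies at 23702 counts while Gm5559, Gm7336 and Gm12070 lie at 1711, 1413 and 2162.

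The coding isoforms of Gapdh itself were listed at or near 0. The 6 of them summed to 2, 5 and 0 counts in PS_high and 0, 3 and 0 in control, although neurons and glia are known to make the enzyme in quantity. Most counts under its symbol lay on a retained-intron isoform, with 1490, 1203 and 748 counts in PS_high and 645, 497 and 759 in control. Gapdh-ps15, a copy on the Y chromosome, had 33, 29 and 49 counts in PS_high and 41, 43 and 8 in control, below the filter. Whether reads of Gapdh mRNA were placed on its copies was not tested.

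Among the pseudogenes whose symbol names a parent, the highest levels were those of copies of genes for ribosomal, metabolic and chromatin proteins. Rps27a-ps2, a copy of the gene for ubiquitin fused to ribosomal protein S27a, had 30.7, 27.7 and 35.1 FPKM in PS_high and 36.3, 29.5 and 23.7 FPKM in control. Ptges3-ps, a copy of the gene for the HSP90 co-chaperone p23, had 38.7, 24.7 and 31.8 FPKM in PS_high and 30.5, 27.4 and 28.1 FPKM in control. In both the groups overlapped. Morf4l1-ps1, a copy of the gene for a chromodomain protein of histone acetyltransferase complexes, lies within Lpp on the same strand and had 30.4, 20.3 and 26.1 FPKM in PS_high and 20.9, 21.8 and 23.1 FPKM in control. Rpl10-ps6, a copy of a large-subunit ribosomal protein gene, lies within Ide on the same strand and had 19.4, 24.5 and 23.9 FPKM in PS_high and 21.7, 24.8 and 27.0 FPKM in control. In these too the groups overlapped.

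Mpc1-ps, a copy of the gene for a mitochondrial pyruvate carrier subunit, had 423, 401 and 579 counts in PS_high and 389, 619 and 583 in control. Pgam1-ps2, a copy of a glycolytic phosphoglycerate mutase gene, had 11.3, 12.5 and 24.4 FPKM in PS_high and 9.60, 19.0 and 21.9 FPKM in control, so that it ranged more widely within each group than between the groups. Rpl3-ps1 on the X chromosome had 16.5, 11.5 and 17.6 FPKM in PS_high and 17.9, 27.6 and 12.4 FPKM in control. Ywhaq-ps3, a copy of the gene for 14-3-3 theta, lies within Cdk5rap2 on the same strand and had 14.9, 18.5 and 17.3 FPKM in PS_high and 12.5, 18.3 and 18.9 FPKM in control. Further ribosomal protein copies at this level were Rpl21-ps15 (13.9 to 18.3 FPKM in PS_high and 13.3 to 16.9 FPKM in control), Rps6-ps4 (13.5 to 21.8 FPKM in PS_high and 11.8 to 14.1 FPKM in control) and Rpl38-ps2 (11.3 to 21.2 FPKM in PS_high and 7.26 to 18.9 FPKM in control). The FPKM of all of these overlapped between the groups. In CPM the groups of Rps6-ps4, a copy of a small-subunit ribosomal protein gene, did not overlap, with 19.7, 13.4 and 12.7 in PS_high and 12.3, 12.5 and 10.9 in control. Its log2 fold change was 0.36 ± 0.27 (SE) with an adjusted p of 0.999977 by edgeR.

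Other types had their own leading transcripts. Vdac3-ps1, a copy of a gene for a channel of the outer mitochondrial membrane, led the unprocessed type with 12.7, 13.9 and 17.7 FPKM in PS_high and 14.4, 13.9 and 14.3 FPKM in control, although it has a single exon. Gm13303 followed at 4.73 to 9.87 FPKM in PS_high and 4.28 to 6.37 FPKM in control, and Gm37313 at 2.99 to 5.72 FPKM in PS_high and 3.44 to 4.59 FPKM in control. Gpx4-ps2, a copy of the gene for a glutathione peroxidase that reduces lipid peroxides, had 10.4, 16.1 and 17.9 FPKM in PS_high and 11.9, 10.9 and 15.2 FPKM in control among the transcribed processed type. Scp2-ps2, a copy of a sterol carrier protein gene, led the transcribed unprocessed type with 5.96, 5.99 and 9.30 FPKM in PS_high and 6.66, 8.21 and 8.93 FPKM in control, ahead of Gm18190 and Gm43355. Gm18190 had 2.53, 3.22 and 2.47 CPM in PS_high and 2.46, 2.16 and 2.20 CPM in control, which did not overlap by a narrow margin, with a log2 fold change of 0.27 ± 0.25 (SE) and an adjusted p of 0.999977 by edgeR. Its FPKM overlapped, as did that of Vdac3-ps1, Gm13303, Gm37313, Gpx4-ps2, Scp2-ps2 and Gm43355.

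The small types gave few values. Pcdhgb8, a polymorphic pseudogene of the protocadherin gamma cluster, whose intact members encode neuronal cell-surface proteins, had 1.75, 2.45 and 1.56 FPKM in PS_high and 2.08, 5.19 and 1.73 FPKM in control, and it overlaps other members of that cluster on the same strand. Thap6, the highest of the transcribed unitary type, had 0.477, 0.510 and 0.499 FPKM in PS_high and 0.268, 0.402 and 0.340 FPKM in control. These groups did not overlap, but the transcript lay below the filter and was not tested. Gm49209 was the highest of the unitary type, with 0.836, 1.36 and 1.32 FPKM in PS_high and 1.39, 1.26 and 1.16 FPKM in control. Gm17087 was the highest of the translated processed type and lies opposite to Pde10a, with 2.06, 3.91 and 1.60 FPKM in PS_high and 3.17, 4.34 and 4.57 FPKM in control. Gm10025, D130007C19Rik and Gm9987 led the type called simply pseudogene, Gm10025 at 12.5 to 16.7 FPKM in PS_high and 10.6 to 15.8 FPKM in control. The T cell receptor segments Traj36 and Trav12-4 had no more than 5 counts in any library.

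**Figure D2:**
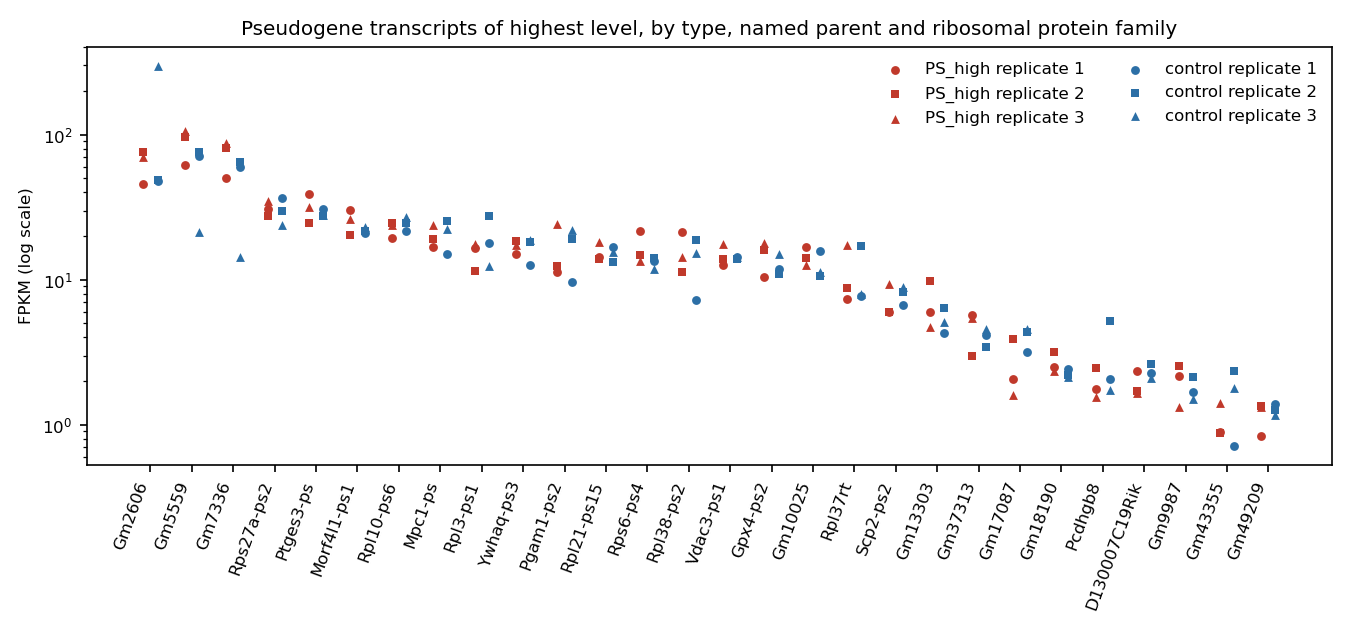
FPKM (log scale) of the tested pseudogene transcripts of highest level by type, named parent or ribosomal protein family, with PS_high on the left and control on the right of each name and 1 marker per replicate. Gm2606 in control replicate 3 (297.6 FPKM) lies furthest from the other libraries.

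In structure the set differed from other annotated transcripts. A single exon was annotated for 80.3% of the pseudogene transcripts and for 93.4% of those tested, against 12.3% of the 127916 other annotated transcripts, and the median length was 568 bases, against 1065 bases. Most pseudogenes lay outside coding genes, but the tested ones less so. Of the 1910 tested, 19.8% lay within a coding gene on its strand, 36.4% within a coding gene only on the opposite strand and 43.7% outside, against 4.69%, 6.57% and 88.7% of those not tested. Within and opposite mean, here and for single transcripts, that the spans overlap. A transcript that reaches past the coding gene, or lies on its exons, is thus included. For a copy inside an intron of an active gene, reads of the host's unspliced RNA on the same strand cannot be told apart from reads of the copy.

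By chromosome, the share of the set on Y was 5.36 times that of other annotated transcripts, and on X 2.68 times. Only 4 of the 812 transcripts on Y were tested, against 109 of 1116 on X. The 4 were Gm18665 and Gm4017, both within Ddx3y on the same strand, Gm21742 and Mid1-ps1. Gm18665, the highest of them, had 82, 31 and 53 counts in PS_high and 81, 79 and 82 in control.

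Chemosensory receptor pseudogenes were mostly listed at 0. Of 289 olfactory receptor pseudogenes 39 had a count and 2 were tested, and of 239 vomeronasal receptor pseudogenes 45 had a count and 2 were tested. Olfr1556-ps1, within Ppfia2 on the same strand, had 37, 34 and 32 counts in PS_high and 62, 55 and 33 in control, and Olfr856-ps1 had 95, 78 and 62 in PS_high and 72, 54 and 67 in control. Vmn2r-ps20 had 39, 24 and 14 counts in PS_high and 37, 19 and 60 in control, and Vmn2r-ps19 had 30, 15 and 21 in PS_high and 12, 6 and 16 in control. In CPM the groups overlapped in the first 3. Those of Vmn2r-ps19 did not, with 0.474, 0.287 and 0.361 CPM in PS_high and 0.187, 0.0962 and 0.248 CPM in control, a log2 fold change of 1.07 ± 0.49 (SE) and an adjusted p of 0.999977 by edgeR.

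Some transcripts of the set are genes in another annotation. RefSeq lists 1339 of the 1910 tested by symbol, and calls 32 of them protein coding. They include Rpl37rt, a retrotransposed copy of the Rpl37 gene, with 165, 163 and 372 counts in PS_high and 177, 369 and 187 in control, and H3f3c, a copy of a replacement histone H3 gene, with 106, 176 and 187 in PS_high and 149, 180 and 241 in control. Ndufb4c, a copy of a complex I subunit gene, and Mab21l2, a developmental regulator, were others of the 32, as were Tma7-ps and Rpl31-ps12. The type given in the table was kept for all of them.

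Ribosomal protein pseudogenes were the largest family with a named parent. They numbered 439, of which 285 had a count and 127 were tested. Their counts came to 10.5, 10.1 and 9.70 per 100 counts of 86 ribosomal protein genes in PS_high and to 10.01, 11.1 and 9.19 in control. The range within control covered that of PS_high. Rpl5-ps2 is not in this family here, because its description misspells ribosomal.

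Tested copies with a named parent usually carried a small part of the counts of copy and parent. A parent was named by symbol or description for 2004 pseudogene transcripts and found in the table for 1163. Most of the 1910 tested had no parent found and were left out. The 252 tested copies compared, of 160 parents, had a median of 3.92 per 100 counts of the parent gene (quartiles 1.61 and 12.4). In 12 cases the copy exceeded its parent by counts, and in 19 by FPKM.

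Summed over the 6 libraries, the tested copies together exceeded the parent for 13 of 160 parents, 4 of them ribosomal protein genes. Only tested copies are summed here and for the families that follow. The tested copies of Rpl17 numbered 8, and the family's copies held 57.2%, 63.5% and 62.6% of the counts of copies and parent in PS_high and 59.2%, 57.0% and 49.8% in control. Rpl17-ps10, Rpl17-ps3 and Rpl17-ps8 were the highest, at 14.7, 14.2 and 12.8 FPKM on average over the 6 libraries. For Rps27a the copies held 78.3%, 74.5% and 74.1% in PS_high and 66.9%, 68.4% and 75.3% in control. For Rpl21 they held 61.5%, 64.9% and 63.3% in PS_high and 75.7%, 69.5% and 70.05% in control, so that the groups did not overlap. The Rpl21 gene itself had 408, 291 and 428 counts in PS_high and 234, 275 and 301 in control. In CPM it had 9.04, 7.01 and 8.81 in PS_high and 4.91, 5.67 and 5.66 in control, which did not overlap. Its log2 fold change was 0.61 ± 0.21 (SE) with an adjusted p of 0.999935 by edgeR's quasi-likelihood test, so it was not called. The copies of Rpl21 had 651, 539 and 739 counts in PS_high and 728, 626 and 704 in control, which overlapped. The last of the 4 was Rpl29, whose 1 tested copy had 54, 10 and 36 counts in PS_high and 56, 45 and 65 in control. The parent Rpl29 had 2, 4 and 5 counts in PS_high and 68, 0 and 2 in control.

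In the Rpl10 family the division was steady, with 43.7%, 44.3% and 43.7% of counts on the copies in PS_high and 43.6%, 42.6% and 42.8% in control. These groups did not overlap, by a narrow margin, and the difference was not tested. For Hmgb1, the gene of a chromatin protein, the copies had 399, 337 and 301 counts in PS_high and 322, 275 and 329 in control, while the parent gene had 2887, 126 and 3179 in PS_high and 497, 2358 and 499 in control. For Rpl7a the copies had 366, 399 and 418 counts in PS_high and 384, 481 and 446 in control, while the parent had 1923, 794 and 2189 in PS_high and 1454, 79 and 2046 in control. In both the parent ranged more widely within each group than the copies did.

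**Figure D3:**
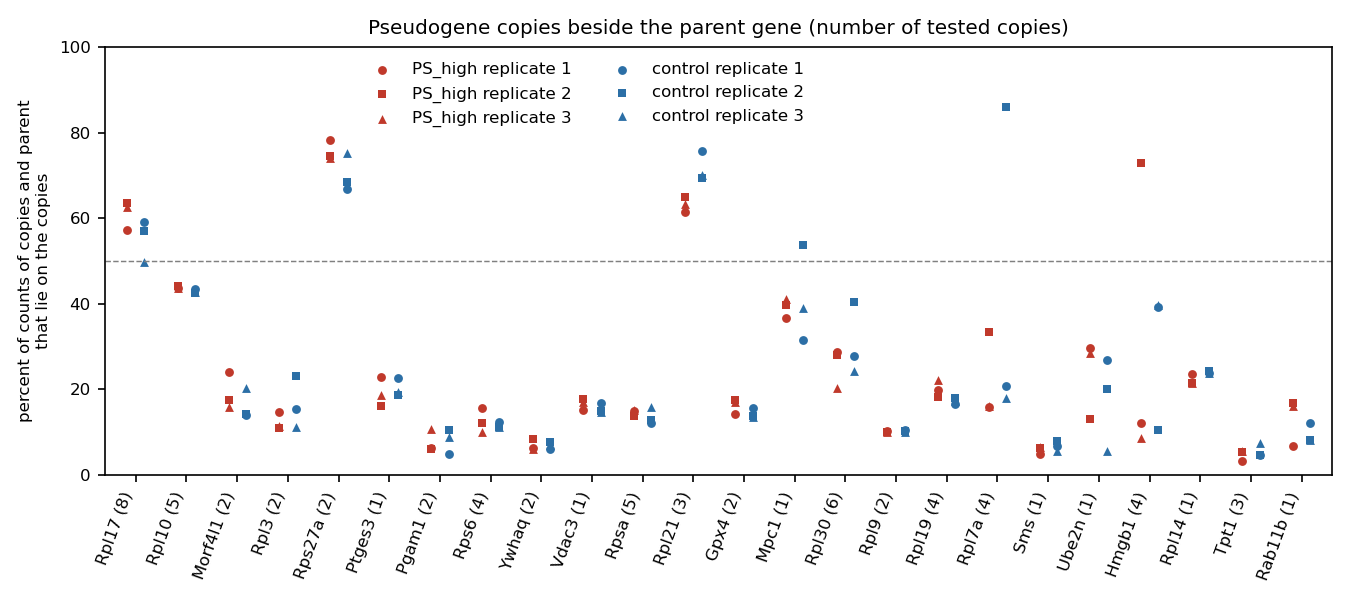
Percent of the counts of tested pseudogene copies and parent gene that lie on the copies, for 24 parents. These are the parents whose tested copies have the most counts. PS_high is left and control right of each name, with the number of tested copies in parentheses. Copies of Rpl17, Rps27a and Rpl21 lie above or near the dashed line at 50%, and the single library values of Hmgb1 (72.8% in PS_high replicate 2) and Rpl7a (85.9% in control replicate 2) stand apart.

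A few copies had counts where the parent had next to none. Dnmt3l-ps1, a copy of the gene for a germ-line cofactor of DNA methylation, had 67, 96 and 55 counts in PS_high and 70, 77 and 102 in control, against 6 counts of Dnmt3l in all 6 libraries. Gpx2-ps1, within Pgm2l1 on the same strand, had 50, 58 and 129 counts in PS_high and 57, 91 and 90 in control, against 37 counts of Gpx2 in all. A transcript of AC151284 described as a copy of Ube2c, a ubiquitin-conjugating enzyme of the cell cycle, had 127, 134 and 244 counts in PS_high and 174, 161 and 181 in control, and Ube2c was listed at 0 in every library.

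Few pseudogene transcripts switched between high counts and 0 within a group. Over the 12 ordered pairs of libraries within a group, 0% to 0.392% of the pseudogene transcripts with at least 100 counts in 1 library had 0 in the other, against 4.78% to 7.44% of other annotated transcripts. That difference was not tested.

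The comparison of PS_high with control asked which transcripts differed after the exposure, and it found no pseudogene transcript past the threshold. With edgeR's quasi-likelihood test on all 69333 transcripts tested, 3 transcripts had an adjusted p under 0.05, all higher in PS_high (0.00433% of those tested) and none lower (0%), and none of the 3 was a pseudogene. At an unadjusted p under 0.05 there were 60 pseudogene transcripts (3.14%), against 3.58% of all. Of the 60, 26 were higher (1.36%, against 1.85% of all) and 34 lower (1.78%, against 1.73% of all). DESeq2 called 9 pseudogene transcripts in all (0.471%, against 1.41% of all), 4 of them higher (0.209%, against 0.737% of all) and 5 lower (0.262%, against 0.674% of all). These counts do not show that pseudogene transcripts were equal in the groups, since 3 libraries a group limit what the test can call.

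The distribution of fold changes was close to that of all transcripts. The median log2 fold change was -0.04 over the pseudogene transcripts and -0.01 over all, and 46.2% lay above 0, against 49.3% of all. By place, the median was -0.06 for the 379 within a coding gene on its strand, -0.10 for the 696 that lie within a coding gene only on the opposite strand, of which 417 lay below 0, and 0.01 for the 835 outside. By family, the 127 ribosomal protein pseudogenes had a median of 0.01, with 65 above 0. Groups that do not overlap in CPM were found for 79 transcripts higher in PS_high (4.14%, against 3.85% of all) and 104 lower (5.45%, against 4.31% of all). By place, these were 16 higher and 55 lower among the 696 on the opposite strand only. Among the 379 on the same strand they were 25 higher and 21 lower, and among the 835 outside 38 higher and 28 lower.

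**Figure D4:**
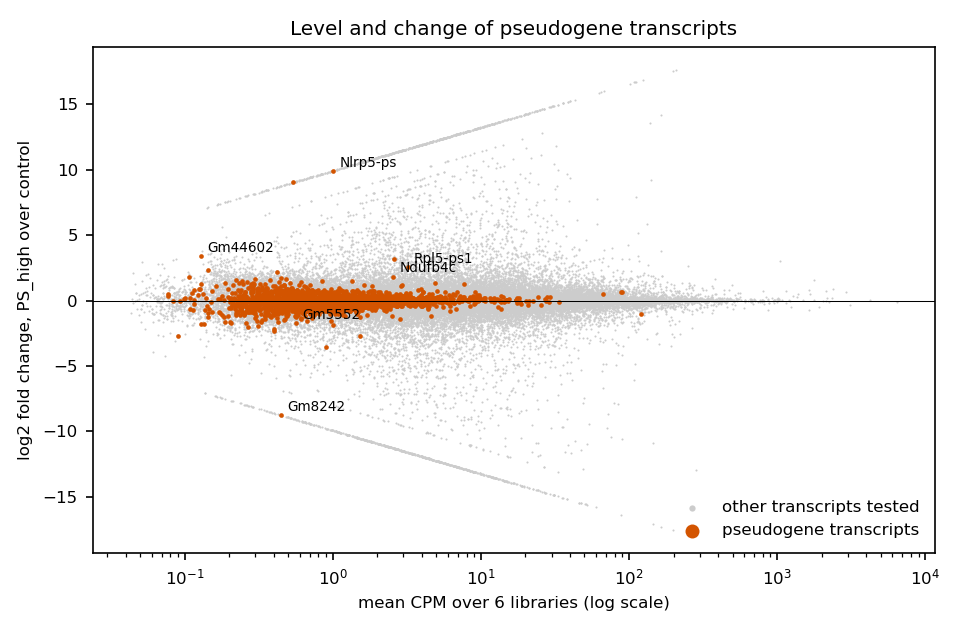
Log2 fold change (PS_high over control) against the mean CPM over 6 libraries (log scale) for 1910 pseudogene transcripts (orange) and the other transcripts tested (grey). Named points are 6 of the 12 described in the text, and the straight outer bands are transcripts with 0 counts in 1 group.

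Among pseudogene transcripts with counts in both groups, Rpl5-ps1 had the smallest unadjusted p. It is a single-exon copy of the gene for ribosomal protein L5, which carries 5S ribosomal RNA into the large subunit, and lies on chromosome 1 (14865072 to 14865965, plus strand, 894 bases) outside coding genes. It had 225, 308 and 406 counts in PS_high and 50, 58 and 67 in control. Every PS_high library lay above every control library, with a log2 fold change of 2.58 ± 0.37 (SE) and an adjusted p of 0.402 by edgeR, whereas DESeq2 gave an adjusted p of 4.11e-10. The other tested copy, Rpl5-ps2, had 47, 44 and 78 counts in PS_high and 54, 75 and 99 in control, and its groups overlapped.

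The Rpl5 gene as a whole did not follow its copy. It had 4042, 3178 and 4469 counts in PS_high and 4133, 3823 and 4748 in control, with a log2 fold change of 0.02 ± 0.14 (SE) and an adjusted p of 0.999935 by edgeR. Within it, the main coding isoform had 250, 0 and 0 counts in PS_high and 2911, 2645 and 62 in control, while an assembled isoform had 3123, 2157 and 2622 in PS_high and 456, 328 and 4337 in control. The estimated counts of Rpl5 were thus divided in different ways among its isoforms, with control replicate 3 on the side of PS_high, whereas Rpl5-ps1 in that library had 67 counts, on the side of control. Whether reads moved between Rpl5 and its copy was not tested.

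Nlrp5-ps was counted in PS_high libraries alone. This transcript of the transcribed unprocessed type has 10 exons on chromosome 7 and derives from an NLR-family gene known for its role in the oocyte. It had 58, 139 and 142 counts in PS_high and 0 in each control library, at least 124-fold higher by a floor of 3 counts over the control group, which covers counting error only. The adjusted p was 0.529 by edgeR and 6.55e-10 by DESeq2. The gene has 3 other isoforms in the table. ENSMUST00000044683 had 202, 48 and 95 counts in PS_high and 330, 222 and 89 in control, and ENSMUST00000190796 had 17, 19 and 24 in PS_high and 18, 15 and 0 in control. ENSMUST00000173766 had 0 counts in each PS_high library and 5, 23 and 13 in control. The pseudogene transcript overlaps Vmn1r90 on its strand, which had 104, 85 and 1 counts in PS_high and 0 in each control library. So 2 of the isoforms had counts in both groups, and the other 2 in 1 group each.

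Gm8242 was the reverse case. This transcript of the transcribed processed type on chromosome 18 had 0 counts in each PS_high library and 65, 43 and 62 in control, at least 51.5-fold lower by the same floor, with an adjusted p of 0.346 by edgeR and 2.03e-08 by DESeq2. A longer isoform of the same gene had 17, 19 and 15 counts in PS_high and 5, 1 and 4 in control. The 2 isoforms stood in opposite order between the groups. Gm18150, also on chromosome 18 and within the protocadherin alpha cluster, had 188 counts in PS_high replicate 3 and 0 in the other 5 libraries.

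Ndufb4c had 136, 219 and 331 counts in PS_high and 48, 108 and 58 in control. Its lowest PS_high value lay above its highest control value, with a log2 fold change of 1.83 ± 0.54 (SE) and an adjusted p of 0.999977 by edgeR, against 0.0405 by DESeq2. The gene Ndufb4, of which it is a relative in complex I of the respiratory chain, had 901, 918 and 774 counts in PS_high and 1039, 1083 and 1231 in control, with a log2 fold change of -0.21 ± 0.18 (SE) and an adjusted p of 0.999935 by edgeR. With Ndufb4c in it, the family of respiratory chain and ATP synthase pseudogenes summed to 326, 338 and 458 counts in PS_high and 228, 264 and 238 in control. Without it, the other 24 summed to 190, 119 and 127 counts in PS_high and 180, 156 and 180 in control. Of the 6 tested members, 4 had a log2 fold change below 0.

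The 3 remaining transcripts named for higher values in PS_high had fewer counts. Gm44602, 132 bases long, had 16, 6 and 20 counts in PS_high and 1, 2 and 1 in control, and DESeq2 gave it an adjusted p of 0.0304. Smarce1-ps1, a copy of a gene of the SWI/SNF chromatin remodelling complex, had 81, 84 and 49 counts in PS_high and 34, 15 and 35 in control, while Smarce1 itself had 1317, 1052 and 1152 in PS_high and 1274, 1356 and 1455 in control. Gm10156 had 55, 48 and 49 counts in PS_high and 35, 17 and 25 in control. The groups of these 3 did not overlap once scaled for depth, and edgeR gave each an adjusted p of 0.999977.

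The transcripts named for lower values in PS_high all carry predicted-gene symbols. Most of the set is of this kind, with 1571 of the 1910 tested described as a predicted gene or pseudogene. Gm5552, opposite to Dnajb6, had 13, 20 and 11 counts in PS_high and 51, 54 and 62 in control, with a log2 fold change of -1.75 ± 0.38 (SE) and an adjusted p of 0.999977 by edgeR, against 0.00073 by DESeq2. Gm49671 on chromosome 16 had 59, 60 and 58 counts in PS_high and 117, 132 and 112 in control, with a log2 fold change of -0.88 ± 0.24 (SE). Its libraries agreed closely within each group, and DESeq2 gave an adjusted p of 0.00773, against 0.999977 by edgeR. Gm17971, within Coq10b, had 13, 21 and 24 counts in PS_high and 67, 50 and 52 in control, with an adjusted p of 0.0296 by DESeq2. Gm13511, within Ppp6c, had 21, 17 and 16 in PS_high and 50, 39 and 37 in control.

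Gm12104, opposite to Asb3, had 47, 41 and 42 counts in PS_high and 85, 86 and 73 in control. Gm5915, opposite to Ctcf, had 58, 72 and 55 counts in PS_high and 107, 136 and 107 in control, and Gm17849, within Osbpl8, had 68, 77 and 67 in PS_high and 117, 108 and 110 in control. The host genes Coq10b, Ctcf and Asb3 had groups that overlapped in CPM. Coq10b had 1787, 1451 and 1380 counts in PS_high and 1758, 1655 and 2664 in control. Ctcf had 5516, 1970 and 3651 in PS_high and 3555, 2945 and 4630 in control. Asb3 had 2658, 2265 and 2920 in PS_high and 3003, 2779 and 3116 in control. Dnajb6, opposite to Gm5552, had a mean of 85.0 ± 12.9 CPM in PS_high and 72.7 ± 1.09 CPM in control (SD). Its log2 fold change was 0.22 ± 0.15 (SE), above 0 where that of Gm5552 was below, with an adjusted p of 0.999935 by edgeR. Ppp6c had means of 111 ± 5.45 CPM in PS_high and 118 ± 10.3 CPM in control (SD). Osbpl8 had means of 207 ± 60.1 CPM in PS_high and 217 ± 66.7 CPM in control (SD). Gm6316 was the remaining transcript called by DESeq2, with 40, 44 and 48 counts in PS_high and 86, 89 and 84 in control and an adjusted p of 0.0496.

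**Figure D5:**
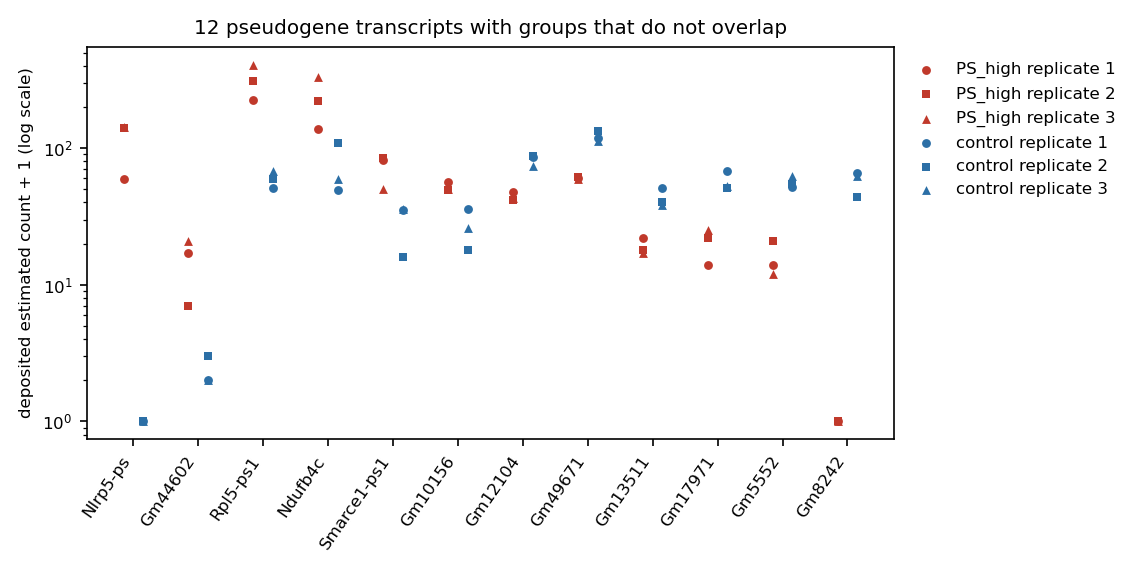
Deposited estimated count + 1 (log scale) of the 12 pseudogene transcripts of smallest unadjusted p whose groups do not overlap in CPM, with PS_high left and control right of each name and 1 marker per replicate. Nlrp5-ps has 0 counts in control and Gm8242 has 0 counts in PS_high.

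Mkrn1-ps1 and Rps15a-ps6 were also named by a fixed symbol. Mkrn1-ps1, a pseudogene whose transcript has been discussed as a regulator of its parent, had 8, 7 and 24 counts in PS_high and 24, 0 and 25 in control, below the filter, so it was not tested. Rps15a-ps6, within Nudcd3 on the same strand, had 73, 62 and 93 counts in PS_high and 85, 114 and 100 in control, with a log2 fold change of -0.26 ± 0.27 (SE) and an adjusted p of 0.999977 by edgeR, and its groups overlapped in CPM. Mkrn1 itself had 3895, 3512 and 4369 counts in PS_high and 4240, 4104 and 5133 in control.

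The parent genes were tested in a fit over all 20003 genes with a mean of at least 0.5 FPKM. Of 149 parents tested none passed an adjusted p of 0.05, against 5 of all genes (0.025%), and 3 had an unadjusted p under 0.05 (2.01%, against 2.75%). The median log2 fold change was 0.03 over the parents and -0.01 over all genes. Among 87 ribosomal protein genes tested none passed, 3 had an unadjusted p under 0.05 (3.45%, against 2.75% of all genes), and 52 lay above 0 (59.8%, against 48.5% of all genes).

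The libraries differed in ways that touch these comparisons. The summed CPM of 3 pan-neuronal markers was 3173 to 3682 in PS_high and 2009 to 2387 in control, that of 6 choroid plexus markers 28.2 to 904 in PS_high and 16.3 to 487 in control, and that of 6 meningeal fibroblast markers 222 to 333 in PS_high and 165 to 212 in control. Excitatory neuron markers, which fit the labelled tissue, were present in all libraries (1349 to 1544 CPM in PS_high and 1166 to 1495 CPM in control), and no olfactory bulb marker was tested, with Eomes listed at 0. The part of tissue composition in the values of the pseudogenes was not tested, and in bulk RNA fewer cells of a type and less RNA per cell cannot be told apart.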

How the data were processed

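RNA of 6 prefrontal cortex libraries was measured as linear and circular transcripts. HISAT2, StringTie and TopHat are listed in the submitters' processing notes. Neither versions nor a genome build were found, and both count as not given in the sources used here. Among 8266 pseudogene transcripts with a symbol in RefSeq (GRCm38.p6), 8242 overlapped the gene of that symbol, so coordinates are those of the table. The authors deposited FPKM and an estimated count per linear transcript, and for circular RNAs the count of back-splice reads and a signal, SRPBM, which is that count scaled per library. For 94.5% to 95.2% of the rows of a library the deposited estimated count equalled FPKM times length, rescaled and rounded up (tolerance 0.01 counts), and reads of several isoforms or copies are divided by the authors' software.

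Estimated counts, already whole, were tested for PS_high against control with edgeR 4.0.16 (R 4.3.3; quasi-likelihood, TMM, two-sided, Benjamini-Hochberg over all 69333 transcripts with a mean of at least 0.5 FPKM). Gene counts were summed over isoforms that share exons with the gene they are named after. Alternatives were DESeq2 1.42.0, limma 3.58.1 on log2(FPKM + 0.1) and log2(FPKM + 1), other scalings and filters, and leaving out each library. The script was tested on simulated data. Library totals ranged from 53344395 to 66004386 counts, so depth limits mainly transcripts with few counts. Replicate numbers did not pair the samples.

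The members and lists were chosen with earlier results of these data known. Transcripts were named by smallest unadjusted p without overlap (6 higher, 6 lower), by highest FPKM per type, named parent or ribosomal family, by fixed symbols, and as the 4 with at least 100 counts in every library of a group and the fewest in the other. Of the symbols fixed, Gm14399, Gm3696, Rpl9-ps6 and Eef1a1-ps1 were not among the pseudogene transcripts. Families and parents were read from symbols and descriptions, and Rbpj-ps3 fell in the immunoglobulin family only through the wording of its description. Rpl5-ps2 fell outside the ribosomal protein family through a misspelling in its description.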

Additional observations from a re-analysis of the deposited data

Results flagged for a closer look

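A circular RNA of a pseudogene transcript lay outside the linear comparison. Of 17369 circular RNAs, 7 have a pseudogene transcript as host, and only 1 of these had back-splice reads in all 6 libraries. It comes from Gm9762, a single-exon processed pseudogene, and spans chr3:78966402-78966775. It had 45, 40 and 48 back-splice reads in PS_high and 39, 37 and 43 in control, and a mean SRPBM of 399 ± 5.41 in PS_high and 312 ± 28.9 in control (SD, n = 3 each). The SRPBM values of the groups did not overlap, whereas the back-splice reads did, and the difference was not tested. The annotated linear transcript of Gm9762 had 82, 120 and 175 counts in PS_high and 101, 31 and 169 in control, which overlapped. An assembled transcript under the same symbol had 1324, 28 and 45 counts in PS_high and 57, 624 and 35 in control.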

How the results depend on the processing

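No pseudogene transcript passed the threshold under RLE size factors, library totals, either limma fit, either filter or the replicate block, or without any single library (0 to 0), while DESeq2 called 9. The replicate block also gave 0 among all transcripts, as did no filter on low values. The count over all transcripts was 978 with DESeq2, 22 and 20 with limma at a pseudocount of 0.1 and 1, and 0 to 1 when a library was left out. No parent gene passed under any alternative run. The difference in the share of counts (PS_high minus control, -0.00597 percentage points) was -0.0925 when FPKM were summed, and -0.0155 to 0.0105 without single libraries, where its sign changed without PS_high replicate 1 and without control replicate 3. Of 203 alternative values of 15 named log2 fold changes none changed sign, which the choice of transcripts without overlap partly fixes, and 8 passed the threshold, all with DESeq2. Pseudogenes at an unadjusted p under 0.05 numbered 60, against 122 with DESeq2, 96 with no filter, 36 at a mean of at least 1 FPKM, 39 with the replicate block, and 36 to 66 when a library was left out. Without control replicates 1, 2 or 3 they were 36, 38 and 42, and all transcripts 2287, 2252 and 2221, against 2480. The numbers of transcripts without overlap under 2 other scalings, chosen after seeing the data, were 80 and 69 higher and 101 and 112 lower. The causes were not tested. Depth limits what can be said of the 7245 transcripts without counts.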

Other observations

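Other circular RNAs with a pseudogene host had few reads. The circle of Gm11855 had 3, 0 and 0 back-splice reads in PS_high and 4, 3 and 6 in control, and the remaining 5 had 3 or fewer reads in all libraries together. High mobility group pseudogenes, copies of chromatin protein genes, had 5 tested members with a median log2 fold change of 0.31, against -0.01 over all transcripts, and no member at an unadjusted p under 0.05. This is 1 of 9 families read from descriptions, and 4 of the 5 are copies of Hmgb1. Groups without overlap in CPM, higher in PS_high, were found for 2 of the 5, against 3.85% of all transcripts. Hmgb1-ps6, within Senp5 on the same strand, had 40, 41 and 28 counts in PS_high and 5, 18 and 21 in control, which did not overlap in CPM or in counts, with a log2 fold change of 1.45 ± 0.59 (SE) and an adjusted p of 0.999977 by edgeR. Hmgb1-ps2 had 220, 199 and 183 counts in PS_high and 205, 168 and 185 in control, and its groups overlapped.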
